A study of Homo sapiens with 6 samples.

Results

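The genes described here are those that were higher with Vorinostat than with DMSO in every replicate number of an array study of OCI-AML3 cells. They were chosen by their measured values. A gene entered when its Vorinostat value exceeded its DMSO value by at least 0.5 log2 units within replicate numbers 1, 2 and 3. Each gene was read by 1 probe set, a group of short probes on the array, the brightest on average over the 6 arrays of those that name no other gene. Of 19775 genes, 47 met the difference (0.238%). The genes TCN1, LY86, RIMS2 and SV2A had been set aside, and 3 of these 4 met it, which left 44 members. As the members were selected on the contrast of Vorinostat with DMSO, their differences are given as a description with no test.

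OCI-AML3 cells are an established human line of acute myeloid leukaemia that carries a mutation of nucleophosmin, so all 6 samples come from 1 cell line. The Vorinostat samples (n = 3) had received 1 μM of the drug, labelled SAHA, for 24 h. The DMSO samples (n = 3) had received its solvent for the same time. RNA was hybridised to Affymetrix HG-U133 Plus 2.0 arrays. The samples of each group carry the numbers 1, 2 and 3, and it is not stated whether these were separate cultures. RNA came from whole cultures, so more cells with a transcript and more transcript per cell cannot be told apart.

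Vorinostat inhibits histone deacetylases, the enzymes that remove acetyl groups from histone tails and from many other proteins. Acetylated histones mark open chromatin at active promoters, and deacetylase inhibition is known to raise some transcripts and to lower others. The deacetylases act within corepressor complexes such as NuRD and are recruited by DNA-binding repressors, among them zinc finger proteins with a KRAB domain. Some members code for proteins of this machinery, and others for surface receptors, transport proteins and RNA-binding proteins.

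The 6 arrays differed in how many probe sets were bright. Vorinostat arrays 1, 2 and 3 held 8158, 2769 and 3274 probe sets at or above a log2 value of 3, and DMSO arrays 1, 2 and 3 held 8645, 3731 and 2761. Replicate number 1 thus held the most bright probe sets in both groups. The array medians ran the other way by a little, at 1.55, 1.64 and 1.65 with Vorinostat and 1.55, 1.65 and 1.66 with DMSO. In this report values under 3 are called near the floor, because 66.3% of all genes lay under 3 on all 6 arrays. The upper range of the deposited values was not equal between arrays, and its part in the differences was not tested. Centring each array on its median left the same 44 members, but the medians within a number were nearly equal, so it could change little. Quantile normalisation, which makes the range of values equal between arrays, gave 66 higher genes, of which 22 were members. Of the markers fixed for acute myeloid leukaemia cells, CEBPA averaged 5.67 with Vorinostat and 5.50 with DMSO, LYZ 4.95 and 5.32, and PTPRC 5.25 and 4.92. The markers MPO, SPI1, CD34, KIT, FLT3, CD14, ITGAM and CSF1R lay under 3 on all 6 arrays, and CD33 had no probe set of its own. All 7 T and NK cell markers also lay under 3 on all 6 arrays.

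The 44 members were moderate in size. Their mean difference had a median of 0.99 log2 units and ranged between 0.54 and 2.48, beside a median of -0.02 over all 19775 genes. The median difference of the members was 0.80 within number 1, 0.89 within number 2 and 0.89 within number 3. In 21 members the mean difference was over 1, a 2-fold change, and 100 genes in all reached that size. No member differed by 1 or more in every replicate number. The opposite rule, lower by at least 0.5 in each number, was met by 100 genes (0.506%), beside the 44 that were higher. Which direction held more genes rested on the replicate numbers. Without number 2, 352 genes were higher and 171 lower, whereas without number 3, 112 were higher and 935 lower, and without number 1, 222 were higher and 298 lower.

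**Figure D1:**
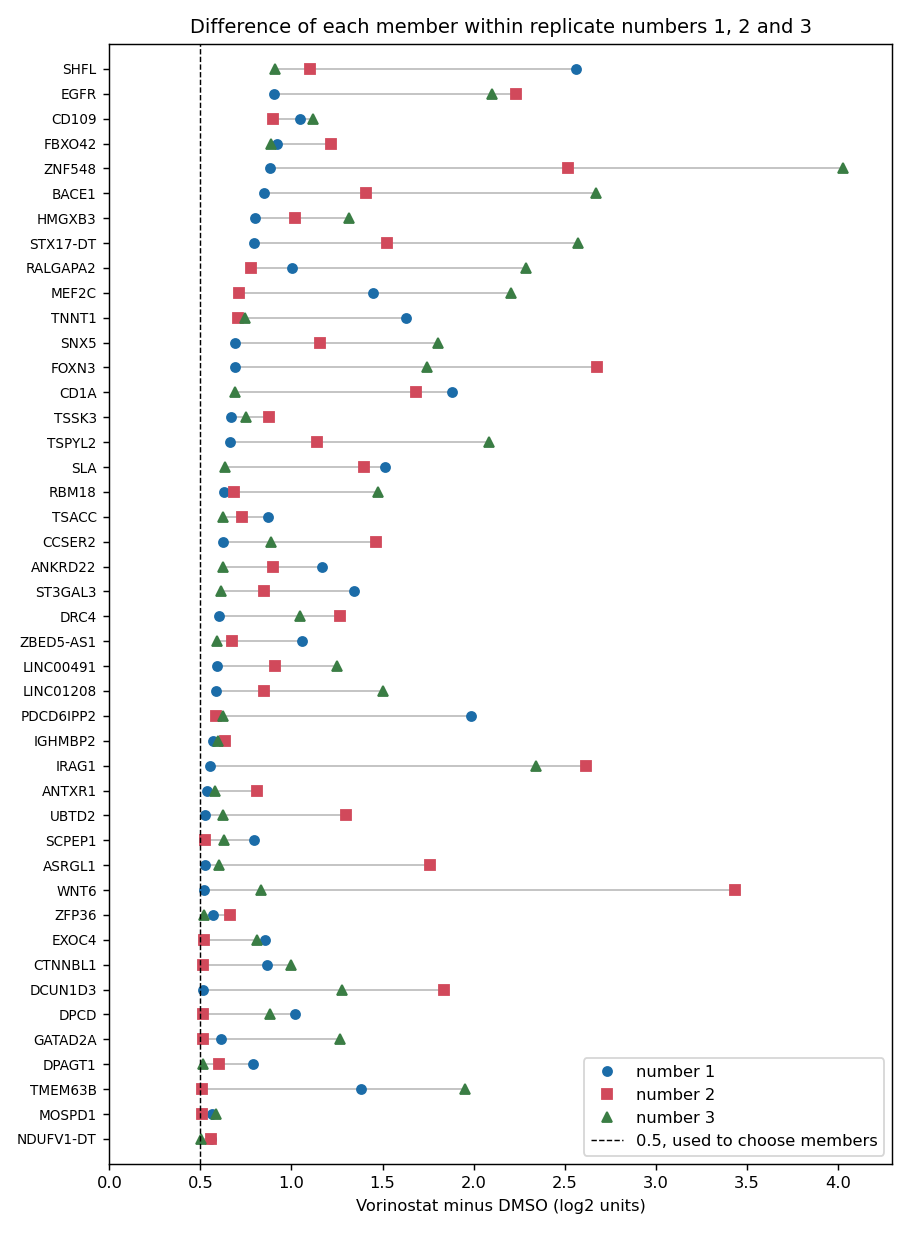
Vorinostat minus DMSO in log2 units (horizontal axis) for the 44 members (rows), with a point for each replicate number and a grey line joining the smallest and the largest difference. Every point lies at or right of the dashed line at 0.5, which the choice of members fixed, and ZNF548 reached 4.03 within number 3.

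Members with a role in transcription and chromatin numbered 6, and their mean difference had a median of 1.37. ZNF548, a zinc finger protein with a KRAB domain, had values of 3.82, 8.39 and 7.02 with Vorinostat, against 2.93, 5.87 and 2.99 with DMSO. FOXN3, a forkhead repressor, had 3.23, 6.43 and 5.13 with Vorinostat, against 2.54, 3.75 and 3.39 with DMSO. Number 2 was the brightest in both groups for both genes, and the groups overlapped for both because Vorinostat 1 was low. The mean difference of ZNF548, 2.48 ± 1.57 (SD, n = 3 numbers), was the largest among all 19775 genes. MEF2C, a transcription factor that class IIa deacetylases bind and repress, had 7.95, 3.26 and 4.09 with Vorinostat, against 6.50, 2.55 and 1.89 with DMSO. Here number 1 was far brighter than numbers 2 and 3 in both groups, so the group means of 5.10 ± 2.50 and 3.65 ± 2.50 (SD, n = 3 each) overlap widely.

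TSPYL2, of the nucleosome assembly protein family, had 3.09, 4.40 and 4.48 with Vorinostat, against 2.43, 3.26 and 2.39 with DMSO. GATAD2A, a subunit of the NuRD deacetylase complex, had 5.56, 4.33 and 3.51 with Vorinostat, against 4.95, 3.82 and 2.25 with DMSO. The lowest Vorinostat array lay below 1 DMSO array in TSPYL2 and below 2 in GATAD2A. HMGXB3, which has an HMG-box domain, had 3.75, 4.07 and 3.69 with Vorinostat, against 2.95, 3.05 and 2.37 with DMSO. Its groups did not overlap, and its 3 Vorinostat arrays were among the most alike of all members at 3.84 ± 0.20 (SD, n = 3). The mean difference of HMGXB3 was 1.04 ± 0.26.

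Surface proteins and a secreted ligand made up 5 members, with a median mean difference of 1.42. EGFR, the epidermal growth factor receptor, had 2.62, 8.29 and 6.30 with Vorinostat, against 1.72, 6.05 and 4.20 with DMSO. Its number 1 arrays were under 3 in both groups, although number 1 held the most probe sets at or above 3 in both groups. CD109, a surface protein anchored by GPI that binds TGF-beta receptors, had 2.41, 2.36 and 3.26 with Vorinostat, against 1.37, 1.46 and 2.14 with DMSO. All 3 differences of CD109 lay between 0.90 and 1.12, and 2 of its Vorinostat arrays and all its DMSO arrays lay under 3. CD1A, which presents lipid antigens on dendritic cells, had 4.15, 3.40 and 2.22 with Vorinostat, against 2.27, 1.71 and 1.53 with DMSO. The signalling ligand WNT6 had 2.07, 5.42 and 2.61 with Vorinostat, against 1.55, 1.98 and 1.78 with DMSO. In WNT6 the mean difference of 1.60 ± 1.60 rested mostly on number 2, and the other differences were 0.52 and 0.84. The other 3 probe sets of WNT6 lay under 3 on all 6 arrays, with mean differences of -0.11, 0.06 and 0.06. ANTXR1, a receptor of anthrax toxin, stayed under 3 on all 6 arrays.

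The ubiquitin and NEDD8 pathway supplied 3 members. FBXO42, a substrate receptor of SCF ubiquitin ligases, had 3.66, 3.88 and 3.002 with Vorinostat, against 2.74, 2.67 and 2.12 with DMSO. DCUN1D3, which helps to attach NEDD8 to cullins, had 3.11, 4.17 and 3.09 with Vorinostat, against 2.60, 2.34 and 1.81 with DMSO. In both genes every Vorinostat array lay above 3 and every DMSO array below it. UBTD2, a protein with a ubiquitin-like domain, had 3.90, 4.68 and 3.29 with Vorinostat, against 3.37, 3.38 and 2.67 with DMSO, so its groups overlapped.

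Membrane traffic, glycosylation and lumenal enzymes held 7 members, with a median mean difference of 0.73, the lowest median of the role groups. BACE1, the beta-secretase that cleaves the amyloid precursor protein, had 4.64, 5.81 and 4.68 with Vorinostat, against 3.79, 4.39 and 2.00 with DMSO. ST3GAL3, a sialyltransferase, had 4.59, 5.67 and 4.28 with Vorinostat, against 3.24, 4.82 and 3.67 with DMSO. SNX5, a sorting nexin of endosomes, had 6.50, 4.66 and 4.59 with Vorinostat, against 5.81, 3.50 and 2.79 with DMSO. Of these, the groups were apart in BACE1 and overlapped in ST3GAL3 and SNX5. The other 3 probe sets of BACE1 lay under 3 on all 6 arrays, with mean differences of 0.26, 0.03 and 0.30. EXOC4, a subunit of the exocyst that tethers secretory vesicles, DPAGT1, which starts the lipid-linked precursor of N-glycans, the serine carboxypeptidase SCPEP1 and MOSPD1 had mean differences of 0.73, 0.64, 0.65 and 0.55. These last 4 were brightest on number 1 in both groups.

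Signalling and ion flux held 4 members. RALGAPA2, which switches off Ral GTPases, had 7.70, 2.49 and 3.75 with Vorinostat, against 6.70, 1.71 and 1.47 with DMSO. SLA, an adaptor that dampens receptor signalling in lymphocytes and myeloid cells, had 6.84, 3.68 and 3.36 with Vorinostat, against 5.33, 2.28 and 2.72 with DMSO. Both genes were brighter on both number 1 arrays than on any other. IRAG1, a partner of the IP3 receptor and substrate of cGMP-dependent kinase, had 2.22, 4.80 and 3.99 with Vorinostat, against 1.67, 2.19 and 1.65 with DMSO. TMEM63B, a channel opened by membrane stretch, had 3.83, 4.63 and 5.34 with Vorinostat, against 2.45, 4.12 and 3.38 with DMSO. All 3 DMSO arrays of IRAG1 were near the floor, whereas only DMSO 1 was in TMEM63B. Both other probe sets of IRAG1 lay under 3 on all 6 arrays, with mean differences of -0.45 and 0.15.

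RNA-binding proteins and RNA-processing factors numbered 5. SHFL, which blocks programmed ribosomal frameshifting by viruses, had 5.61, 3.14 and 2.32 with Vorinostat, against 3.05, 2.04 and 1.41 with DMSO. Its smallest difference, 0.91, was the highest smallest difference of any member. The brightest other probe set of SHFL was lower with Vorinostat in numbers 2 and 3. ZFP36, which binds AU-rich elements and speeds mRNA decay, had 4.78, 4.02 and 3.14 with Vorinostat, against 4.21, 3.36 and 2.62 with DMSO. The differences of ZFP36 were close to each other, at 0.58 ± 0.07 (SD, n = 3 numbers), whereas its level varied more than that between arrays of the same group. The helicase IGHMBP2, the spliceosome-associated CTNNBL1 and RBM18 had mean differences of 0.60, 0.79 and 0.93.

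Genes of the testis and of cilia held 4 members. DRC4, a subunit of the dynein regulatory complex of motile cilia, had 2.47, 2.87 and 2.64 with Vorinostat, against 1.87, 1.60 and 1.59 with DMSO. TSACC, a co-chaperone of testis-specific kinases, had 3.16, 5.32 and 4.54 with Vorinostat, against 2.29, 4.60 and 3.92 with DMSO. TSSK3 is itself such a kinase and had 2.42, 3.49 and 2.74 with Vorinostat, against 1.75, 2.62 and 1.99 with DMSO. Only TSACC among these 4 had a DMSO array above 3. The groups were apart in DRC4 and DPCD, a gene linked to ciliary function in mice, and they overlapped in TSACC and TSSK3.

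Non-coding transcripts and a pseudogene supplied 6 members, and the others were TNNT1, CCSER2, ANKRD22 and ASRGL1. STX17-DT, a divergent transcript beside STX17, had 4.94, 7.37 and 6.51 with Vorinostat, against 4.15, 5.84 and 3.93 with DMSO. It was 1 of only 3 members above the floor on all 6 arrays, with ST3GAL3 and TNNT1. TNNT1, troponin T of slow skeletal muscle, had 5.43, 4.14 and 3.79 with Vorinostat, against 3.80, 3.43 and 3.05 with DMSO. The groups of TNNT1 overlapped narrowly, since Vorinostat 3 lay just below DMSO 1. PDCD6IPP2 is a transcribed pseudogene and near copy of PDCD6IP, so its signal of 5.21, 2.57 and 2.51 with Vorinostat, against 3.22, 1.99 and 1.88 with DMSO, may hold the parent transcript. NDUFV1-DT entered with the smallest margin, a smallest difference of 0.504, and lay under 3 on all 6 arrays.

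In 14 of the 44 members the lowest Vorinostat array lay above the highest DMSO array. This held for 2.3% of all genes (454), and since the rule used the same differences nothing is read from these shares. In HMGXB3 and DRC4 alone the gap between the groups was 0.5 or more without regard to replicate number. The 250 bases before the transcript start are shown for these 2 members, for TNNT1, which was above the floor on all 6 arrays, and for CD1A, which lacks the GC box that most members hold. The sequences are those of RefSeq on GRCh38.p14, read 5′ to 3′ on the strand of the gene. Capitals mark GGGCGG, the GC box bound by Sp1, on either strand, and the TATA box letters TATAAA.
HMGXB3 (chr5:150000489-150000738, plus strand): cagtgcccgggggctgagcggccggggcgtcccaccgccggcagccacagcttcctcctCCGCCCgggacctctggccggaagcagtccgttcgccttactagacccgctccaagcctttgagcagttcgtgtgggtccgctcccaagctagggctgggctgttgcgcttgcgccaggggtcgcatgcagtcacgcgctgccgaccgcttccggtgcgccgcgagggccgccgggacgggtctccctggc
DRC4 (chr16:90022430-90022679, plus strand): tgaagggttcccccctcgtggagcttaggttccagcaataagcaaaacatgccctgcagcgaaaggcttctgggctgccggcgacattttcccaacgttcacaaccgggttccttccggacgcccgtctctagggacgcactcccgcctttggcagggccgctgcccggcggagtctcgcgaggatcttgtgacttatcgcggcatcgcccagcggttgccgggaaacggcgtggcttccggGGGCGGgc
TNNT1 (chr19:55149207-55149456, minus strand): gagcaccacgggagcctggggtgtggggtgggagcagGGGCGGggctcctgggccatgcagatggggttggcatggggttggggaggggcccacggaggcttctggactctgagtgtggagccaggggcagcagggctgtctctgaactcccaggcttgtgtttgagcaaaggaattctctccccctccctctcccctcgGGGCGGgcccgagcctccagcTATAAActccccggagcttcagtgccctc
CD1A (chr1:158248086-158248335, plus strand): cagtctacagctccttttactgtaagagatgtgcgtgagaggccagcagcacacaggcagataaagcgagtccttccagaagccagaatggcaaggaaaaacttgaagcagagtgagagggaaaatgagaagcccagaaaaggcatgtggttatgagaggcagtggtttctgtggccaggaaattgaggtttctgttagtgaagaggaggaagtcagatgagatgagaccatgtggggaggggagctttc
HMGXB3 and DRC4 each hold 1 GC box, TNNT1 holds 2 and a TATA box that starts 29 bases before the transcript start, and CD1A holds neither. The start used for DRC4 lies inside the annotated extent of the gene, 90019633 to 90044960 on chromosome 16.

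RefSeq promoters, 250 bases before the start and 50 after it, were found for 36 of the 44 members. The GC box, searched on both strands, was present in 28 of them (77.8%), in 58.9% of 15382 promoters of genes on the array and in 44.6% of all 27305 promoters. The TATA box letters were in 2 member promoters (5.56%), those of TNNT1 and ANTXR1, against 8.76% of the promoters of genes on the array. The CCAAT letters were in 10 member promoters (27.8%), against 36.1%. The E-box CACGTG was in 1, that of SCPEP1 (2.78%), against 8.90%. TGACTCA, the site of AP-1, was in 2 member promoters (5.56%), against 3.74%. The cyclic AMP response element TGACGTCA was in 2 as well (5.56%), against 2.67%. The median GC content was 65.3% in member promoters, against 63.0% for genes on the array. These are matches of letters with no test, and they do not show binding.

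Much of the set lay close to the floor. All 3 DMSO arrays were under 3 in 18 members, 2 were in 14, 1 was in 9 and none was in 3. With Vorinostat, all 3 arrays were under 3 in 4 members, 2 in 13, 1 in 8 and none in 19. Thus the mean lay under 3 in both groups in 12 members, in DMSO alone in 15, and in neither in 17. The 4 members under 3 on all 6 arrays were ANKRD22, DRC4, ANTXR1 and NDUFV1-DT. The members' median mean was 3.49 with Vorinostat and 2.50 with DMSO. Over all genes 5.84% were above the floor on all 6 arrays, and 6.82% of the members were. Under 3 on all 6 arrays were 66.3% of all genes and 9.09% of the members. Of all 19775 genes, 13938 had all 3 DMSO arrays under 3, and 15900 had a mean under 3 in both groups. The members were thus less often near the floor than all genes, but the rule used the same values, so nothing is read from this.

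When every value under 3 was set to 3 before the differences were taken, 9 members still met the rule. They were BACE1, GATAD2A, HMGXB3, SNX5, ST3GAL3, STX17-DT, TMEM63B, TNNT1 and ZNF548. For the other 35 at least 1 of the 3 differences of 0.5 was measured in part below 3. Vorinostat arrays 1, 2 and 3 held 31, 29 and 26 members at or above 3, and DMSO arrays 1, 2 and 3 held 18, 16 and 7.

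**Figure D2:**
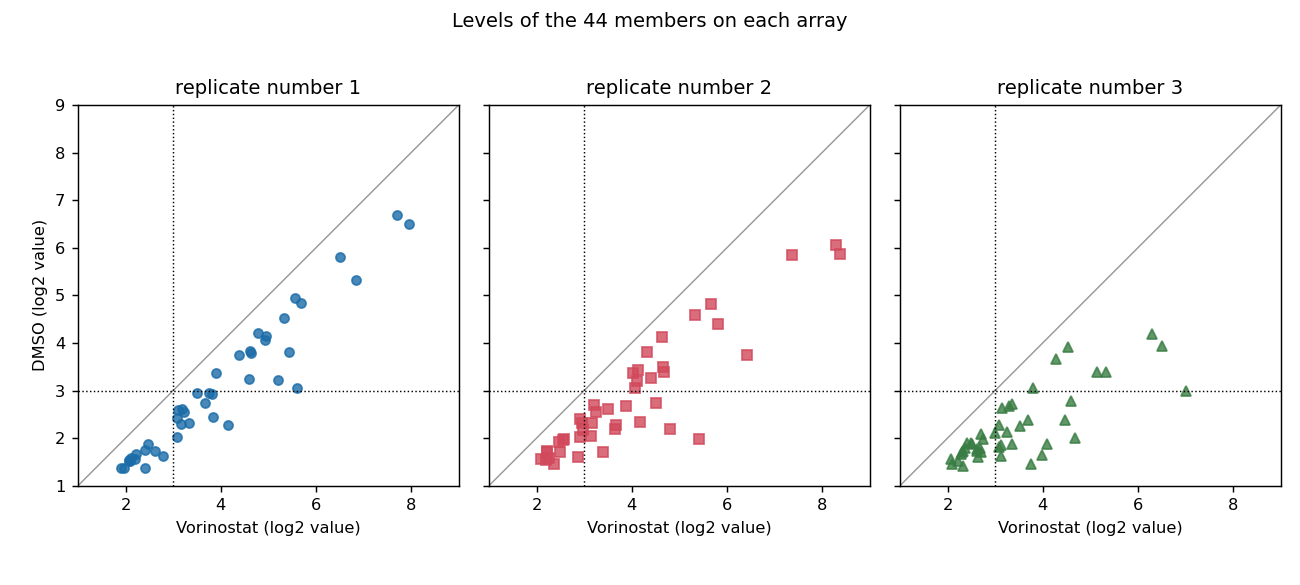
Level of each of the 44 members on the Vorinostat array (horizontal axis, log2 value) and on the DMSO array (vertical axis, log2 value) of the same replicate number, 1 panel per number. The diagonal marks equal values and the dotted lines mark 3, and all points lie below the diagonal because of how the members were chosen, with 18, 16 and 7 of them above 3 on the DMSO arrays.

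The members differed in which replicate number was the brightest. The brightest DMSO array was number 1 in 21 members, number 2 in 22 and number 3 in 1 (CD109). Over all genes number 1 was brightest in 43.8%, number 2 in 26.8% and number 3 in 29.4%. Near-floor values blur this order, so genes with a mean of at least 3 over the 6 arrays are given as well. Among 3379 such genes, 91.5% were brightest on DMSO 1 and 6.45% on DMSO 2. Of the 20 such members, 9 were brightest on DMSO 1 and 11 on DMSO 2. The median difference within number 2 was -0.73 over the 3379 genes, whereas the rule required at least 0.5. The member rule and the mean over 6 arrays both used these values, so nothing is read from this contrast.

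In 13 members (29.5%) both number 1 arrays lay above all other arrays, RALGAPA2, MEF2C, SNX5 and SLA among them, against 32.1% of all genes. In 3 members (6.82%), EGFR, FOXN3 and TSACC, both number 1 arrays lay below all others, against 22.6% of all genes. The other members were mixed. With a mean of at least 3, number 1 lay above in 35% of the members, against 85.1% of all such genes. There it lay below in 15%, against 1.92%. The order of the 3 numbers was the same in both groups in 28 members (63.6%), against 32.5% of all genes. The rule used the same values, so nothing is read from any of these shares. No cause of these orders was tested.

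Exchanging the labels Vorinostat and DMSO within replicate numbers gave counts to set beside the 44. The same rule was applied to the same 19775 genes, again without the 4 genes set aside. With the labels exchanged in number 1 alone 15 genes met it, in number 2 alone 136, and in number 3 alone 3. With numbers 1 and 2 exchanged 199 genes met it, with 1 and 3 exchanged 1, and with 2 and 3 exchanged 37. The exchange of all 3 numbers gave the 100 genes that were lower with Vorinostat. Thus 3 of the 7 exchanges gave more genes than the true labels and 4 gave fewer, over a range of 1 to 199.

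Number 2 was exchanged in all 3 of the higher counts, and the other exchange with number 2 in it gave 37. Vorinostat 2 held 2769 probe sets at or above 3, against 3731 on DMSO 2, and the part of brightness in the counts was not tested. Among genes with a mean of at least 3, the true labels gave 20. The exchanges of number 2, of 1 and 2, of 2 and 3, and of all 3 gave 122, 168, 29 and 85. The exchanges of number 1, of 1 and 3, and of number 3 gave 8, 1 and 0. Among genes above the floor on all 6 arrays, the true labels gave 3. There the exchanges that held number 2 gave 50, 55, 18 and 41 in the same order, and the others gave 0. At both levels every exchange that held number 2 thus gave more genes than the true labels. The counts with the true labels, 44 over all genes and 20 and 3 at these levels, each lay within the range of the exchanged counts.

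**Figure D3:**
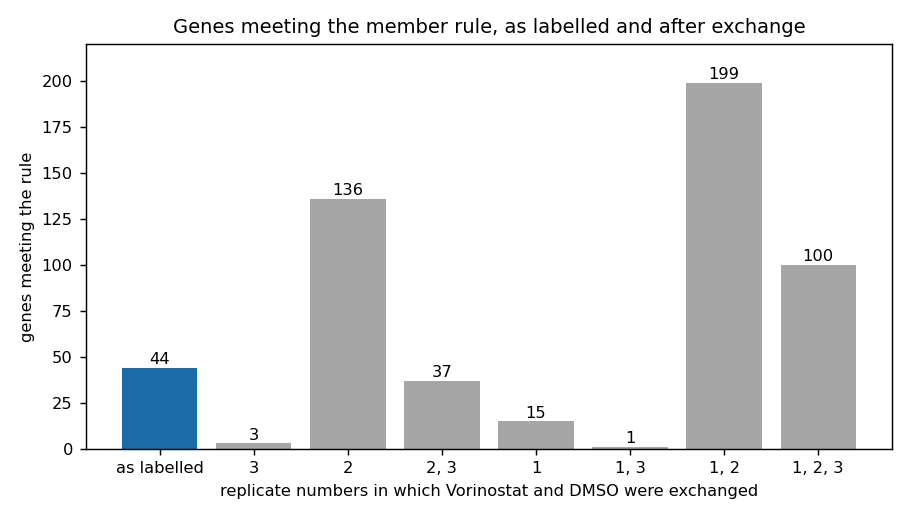
Number of genes meeting the rule of at least 0.5 in every replicate number (vertical axis), with the true labels (first bar) and with Vorinostat and DMSO exchanged within the replicate numbers named on the horizontal axis. The bar of 44 stands below those of 100, 136 and 199 and above the other 4.

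Other probe sets that name the same gene give a second reading on the same arrays. They were found for 30 members, 80 probe sets in all, and 14 members had none. None of the 80 met the rule, beside 7 of 21316 other probe sets of all genes (0.0328%). A positive difference of any size in each number was found in 9 of the 80 (11.2%), against 11.6% of the other probe sets of all genes, so the share among members was close to the background. The 9 belonged to 6 members. Most of these probe sets were dim, with 61 of the 80 (76.2%) under 3 on all 6 arrays, against 86.9% for all genes.

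The other 19 had at least 1 array at or above 3, and 7 of them, for 6 members, had a mean of at least 3. Of these 7, 1 was positive in each number (14.3%), against 4.42% of the other probe sets of all genes with such a mean. Their mean difference had a median of 0.29, against -0.23 for all genes. They were read on the arrays that chose the members, so nothing is read from these shares. EGFR was read by 8 further probe sets, of which 7 were under 3 on all 6 arrays. The remaining probe set had 1.81, 4.90 and 4.92 with Vorinostat, against 1.46, 4.87 and 4.67 with DMSO. It shared the low number 1 of the member probe set in both groups, and its differences were 0.35, 0.04 and 0.25. The second MEF2C probe set had 6.81, 2.91 and 3.60 with Vorinostat, against 4.98, 3.62 and 3.14 with DMSO, so number 2 went the other way by -0.71. Likewise the second RALGAPA2 probe set with a mean above 3 had 5.77, 1.51 and 2.47 with Vorinostat, against 6.19, 2.13 and 1.81 with DMSO. By this reading RALGAPA2 was lower with Vorinostat in numbers 1 and 2.

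SNX5 had 2 such probe sets. The brighter had 7.18, 1.96 and 2.01 with Vorinostat, against 6.49, 2.44 and 1.36 with DMSO. The other had 5.995, 2.59 and 2.77 with Vorinostat, against 4.15, 2.63 and 2.69 with DMSO. Both were higher in numbers 1 and 3 and lower in number 2. The second SLA probe set gave differences of 1.15, -0.16 and 0.47, and that of ST3GAL3 gave 0.44, -0.41 and 0.02. In these genes too number 2 alone was negative. For GATAD2A a dimmer probe set was lower with Vorinostat in every number, by -0.69, -0.52 and -0.19, and the member probe set is of the _x_at kind, whose probes can also bind other transcripts.

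In HMGXB3 alone all other probe sets, 1 in number, were positive in each number. It had 2.40, 2.48 and 2.20 with Vorinostat, against 2.31, 2.22 and 2.10 with DMSO. All 6 values were near the floor and the differences were at most 0.26. ZNF548, the member with the largest mean difference, had 2 further probe sets, both under 3 on all 6 arrays, with mean differences of 0.13 and -0.04. The brightest other probe set of SHFL gave differences of 1.67, -0.18 and -0.11. That of CD109 gave 1.63, 0.04 and -0.44, and that of FBXO42 gave -0.07, -0.29 and 0.97. Each of these had a mean under 3 over the 6 arrays. The 7 other probe sets of FOXN3 had mean differences between -0.25 and 0.16. None of them was positive in each number. Several were lower with Vorinostat in every number, 1 of them by -0.59, -0.12 and -0.03. The probe sets of a gene can read different ends or isoforms of its transcript, and which of them matched the transcripts made in these cells was not tested.

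**Figure D4:**
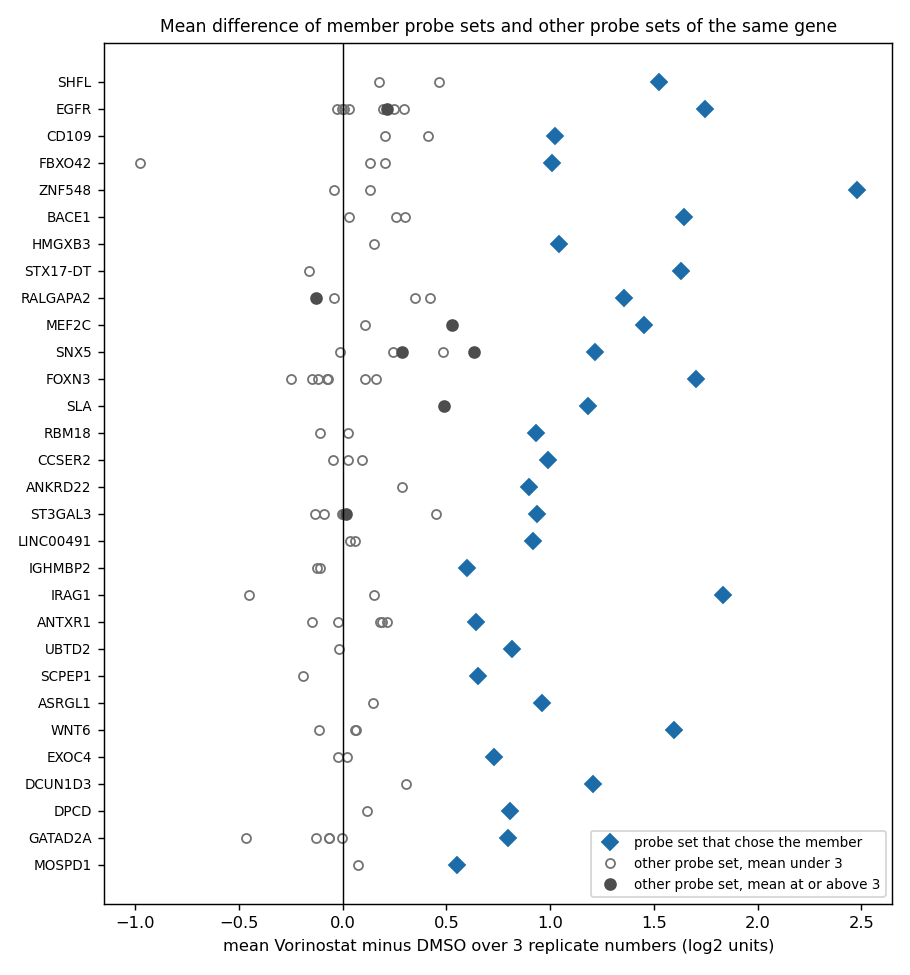
Mean Vorinostat minus DMSO over the 3 replicate numbers (horizontal axis, log2 units) of the probe set that chose each member (diamonds) and of every other probe set of the same gene (circles, filled where the mean over 6 arrays was at least 3), for the 30 members with more than 1. Every diamond lies right of all circles of its gene, and the circles centre near 0 with a median of 0.03. The filled circles alone had a median of 0.29.

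Of 21 gene lists, 5 held 1 member each and 16 held none. As members were 0.223% of all genes, lists of this size could hold few by their size alone, and nothing on shared function is read from these counts. TSPYL2 was the member among 18 measured cell cycle inhibitors and p53 targets, CD109 among 37 integrins and adhesion receptors, CD1A among 36 monocyte and macrophage genes, MEF2C among 46 myeloid and early response transcription factors, and RALGAPA2 among 37 small GTPases and their regulators. None of 16 histone deacetylase genes and none of 14 histone genes met the rule. Of 11 housekeeping genes none was a member, and their median differences were 0.02 in number 1, -1.70 in number 2 and -0.24 in number 3.

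By annotation 38 members (86.4%) were protein coding, against 83.5% of all genes. Long non-coding RNAs numbered 5 (11.4%), against 13.4%, and 1 was a transcribed pseudogene (2.27%), against 2.14%. The members lay on 17 chromosomes, with 7 on chromosome 11 and 5 each on chromosomes 1 and 19. The chromosomes of all genes were not counted, so nothing is read from this spread. By kind of probe set, 31 members (70.5%) were read by a probe set of the plain _at kind, against 69.5% of all genes. A further 10 were read by the _s_at kind (22.7%), which can bind several transcripts, against 22.1%.

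The threshold split near neighbours. Just inside it lay NDUFV1-DT, MOSPD1, TMEM63B, DPAGT1 and GATAD2A, with smallest differences between 0.504 and 0.513. Just outside it lay FGFR2, CATSPERZ, IFT52, PACS2 and HTT, with smallest differences of 0.493, 0.490, 0.487, 0.481 and 0.465. FGFR2, a fibroblast growth factor receptor, had 1.90, 3.58 and 4.40 with Vorinostat, against 1.41, 2.40 and 2.21 with DMSO. Its profile resembled that of EGFR in that number 1 was the lowest in both groups.

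Over the whole array, no probe set of 54613 passed an adjusted p of 0.05 in limma with Benjamini-Hochberg adjustment, in either direction. At an unadjusted p under 0.05, 272 probe sets were higher and 273 lower with Vorinostat. With the replicate number as a block the adjusted count was again 0, and the unadjusted counts were 867 higher and 1140 lower. Among 54613 probe sets many can pass an unadjusted p of 0.05 with no effect, so no change is read from these counts.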

How the data were processed

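RNA of OCI-AML3 cells was hybridised to Affymetrix HG-U133 Plus 2.0 arrays, 3 for Vorinostat and 3 for DMSO, grouped by the sample titles. The authors deposited log2 values for 54675 probe sets. The methods state that the scans were taken into Partek Genomics Suite. MAS5 and RMA also appear in the processing notes of the submitters, where neither a version nor what each was used for is given. Log2 was read from the range of the values, and their centring is not known. After 62 control probe sets were left out, 54613 remained, of which 41091 name 1 gene, 1801 several and 11721 none here, by the platform annotation. No value was renormalised. The members and gene lists were chosen with earlier results of these data known, and roles were assigned after the members were seen.

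Vorinostat was compared with DMSO by limma 3.58.1 in R 4.3.3 (lmFit and eBayes, no block, Benjamini-Hochberg adjustment over all 54613), which was tested on simulated data. The simulated spread was smaller than that of some members, so this checked the code and not what these arrays could detect. Members were described in Python 3.11.15 with pandas 2.3.3. Deviations from the group mean correlated between arrays of the same number at 0.874, 0.599 and 0.672 over probe sets, each above 0.1, so the numbers were taken to pair the arrays. DMSO 3 and Vorinostat 2 also correlated at 0.695, so numbers 2 and 3 were not told apart. P-values measure the spread between these samples only, which may be technical, and 3 arrays per group limit the precision.

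Genes were named by a rule: the members with the highest smallest difference, those above 3 on all 6 arrays, members of the lists, members with 2 or more other probe sets, and genes nearest the threshold. Other members were named for their role after their values were seen. Alternatives changed the threshold, the normalisation, the choice of probe set, the floor and the samples. Promoters came from RefSeq on GRCh38.p14, and 8 members had none in that table.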

Additional observations from a re-analysis of the deposited data

How the results depend on the processing

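The count of 44 members depended on the threshold, the probe sets and the samples. A difference of at least 0.25 gave 230 higher and 401 lower genes, and one of at least 1 gave 0 and 12. The mean of all probe sets of a gene gave 18 higher, 15 of them members, and 45 lower. A mean of at least 3 left 20 members. Values below 3 set to 3 gave 9 higher and 58 lower. Leaving out each replicate number in turn gave 112 to 352 higher and 171 to 935 lower genes, as fewer differences then had to pass. Groups apart by at least 0.5 with no pairing gave 2 and 4. Quantile normalisation gave 66 higher genes, of which 22 were members, and 125 lower. Subtracting the median of all genes from each difference gave 44 with 41 members, and centring each array on its median gave the same 44. Under these alternatives the higher genes outnumbered the lower in no case except when replicate number 2 was left out.

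In limma the adjusted count was 0 in every fit run, and the lowest adjusted p was 0.887 with the replicate block. At the methods' t-test 470 probe sets were higher and 645 lower with an unadjusted p under 0.05, and none after adjustment. With each sample left out, the unadjusted counts ran from 218 to 999 higher and from 86 to 853 lower, with 999 higher without Vorinostat replicate 1 and 853 lower without DMSO replicate 1.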

Other observations

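Probe sets that did not name 1 gene were outside the member rule. Of 1801 that name several genes, 1 was higher and 11 were lower with Vorinostat by at least 0.5 in each replicate number. Of 11721 unnamed probe sets, 6 were higher and 7 lower. Of the 41091 that name 1 gene, 54 were higher and 134 lower, counting every probe set and not only the brightest of each gene.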
